A study of Mus musculus with 26 samples.

Results

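The pathway from the leukaemia inhibitory factor (LIF) receptor to Stat3 was followed through its transcripts in mouse embryonic stem (ES) cells depleted of Mettl3 or Mettl14. It was represented by 9 genes: the receptor chains Lifr and Il6st, the kinases Jak1 and Jak2, the transcription factor Stat3, and the target genes Socs3, Pim1, Pim3 and Gbx2. They are 9 of the 22180 genes that the arrays measured with a probe set of a single gene symbol, and all 9 lay among the 14787 genes bright enough to be tested. The genes were chosen by name and not by a threshold on their values, but with earlier results of these data known. Socs3, Pim1 and Gbx2 had 2 probe sets each, and for them the probe set with the higher mean over the 26 arrays was used.

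LIF binds a receptor made of the Lifr protein and gp130, the product of Il6st, which is shared by the whole family of interleukin-6-type cytokines. Janus kinases held at the receptor then phosphorylate Stat3, which moves to the nucleus and switches on its targets. Among these, Socs3 encodes a feedback inhibitor that silences the receptor complex, Pim1 and Pim3 encode serine/threonine kinases that favour growth and survival, and Gbx2 encodes a homeobox transcription factor. In mouse ES cells grown in serum, this pathway sustains self-renewal, and withdrawal of LIF lets the cells differentiate.

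Mettl3 and Mettl14 form the complex that places N6-methyladenosine on messenger RNA. Cells of the J1 line were cultured in serum with LIF on a layer of irradiated mouse embryonic fibroblasts, per the labels' protocols. LIF was thus part of the culture described for every group. Whether it was present during the incubation of 4 h or 8 h is not given. In a time course of 18 arrays, scramble control cells and cells with knockdown of Mettl14 or of Mettl3 were taken at 0 h, 4 h and 8 h, which made 9 groups of 2. A further set, called the repeat set here, was taken at 0 h and had 8 arrays in 4 groups of 2, in which each knockdown had a scramble control of its own. The labels describe lentiviral short hairpin RNA with puromycin selection as well as transfected small interfering RNA (siRNA), do not say which arrays had which, and name no agent for the incubation of 4 h or 8 h. Replicate 2 of each scramble control in the repeat set carries a description of 4 h but a title, a source name and a time of 0 h, and was grouped as 0 h.

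The siRNA target sequences that the labels list are shown in DNA letters, 5′ to 3′, because they define which transcripts were to be removed.
Mettl3 target 1: ggactgcgatgtgattgta
Mettl3 target 2: gacgaattatcaataagca
Mettl14 target 1: ccggatgtacagaggaaat
Mettl14 target 2: gggaactcatcagactaaa
Mettl14 target 3: gcacctcggtcatttatat

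The promoters of Socs3, Pim3 and Gbx2, the members with the largest falls between 0 h and 8 h in scramble, are printed below as the 250 bases before the annotated start, 5′ to 3′ on the strand of the gene (RefSeq, build GRCm38.p6). Capitals mark TTCNNNGAA, the palindromic core that Stat3 is known to bind. The search covered both strands of a window of 300 bases, which includes the first 50 transcribed bases.
Socs3, chr11:117969367-117969616, minus strand: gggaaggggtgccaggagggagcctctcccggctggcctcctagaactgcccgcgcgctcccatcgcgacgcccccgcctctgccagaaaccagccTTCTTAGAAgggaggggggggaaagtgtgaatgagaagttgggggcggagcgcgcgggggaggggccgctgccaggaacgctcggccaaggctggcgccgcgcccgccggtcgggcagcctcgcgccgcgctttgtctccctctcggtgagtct
Pim3, chr15:88861944-88862193, plus strand: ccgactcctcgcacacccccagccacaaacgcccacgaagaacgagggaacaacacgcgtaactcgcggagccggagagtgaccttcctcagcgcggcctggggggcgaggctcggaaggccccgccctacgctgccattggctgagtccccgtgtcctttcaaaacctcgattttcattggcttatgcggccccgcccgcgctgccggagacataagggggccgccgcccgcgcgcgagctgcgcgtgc
Gbx2, chr1:89931177-89931426, minus strand: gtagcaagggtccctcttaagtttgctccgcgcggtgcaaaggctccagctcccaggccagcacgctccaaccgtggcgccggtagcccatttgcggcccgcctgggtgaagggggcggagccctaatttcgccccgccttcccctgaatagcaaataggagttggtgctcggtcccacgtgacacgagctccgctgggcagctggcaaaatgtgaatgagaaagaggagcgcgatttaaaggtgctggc
The Socs3 window held the motif as TTCTTAGAA, from position 97 of the printed sequence. None of the windows of the other 8 genes held these letters, Lifr and Pim1 with 2 windows each. The motif occurred in 8.3% of the 32851 promoter windows of all genes. The motif TATAAA, searched on both strands, was in 13.6% of all windows and in none of the members' windows. The members' windows held 49% to 81.3% G and C, beside a median of 52.7% over all windows.

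Values were log2 signal intensities. The correlation of replicates over all probe sets was r = 0.987 to 0.993, and the median signal per array lay between 6.28 and 6.50. The knockdown of Mettl14 lowered its own transcript to 30.9% of scramble at 0 h of the time course and to 39% in the repeat set. The annotation pairs the Mettl3 probe set with Tox4 too. It stood at 26.9% (time course, 0 h) and 23.6% (repeat set) of scramble with Mettl3 knockdown and at 70.5% and 73.2% in the Mettl14 knockdowns. Markers of ES cells fell in the knockdowns. Of 7 tested markers, 5 fell with Mettl14 and 6 with Mettl3 knockdown in the time course (0 h), 7 and 6 in the repeat set, and none rose. Beside these and the following marker counts, 39.5% (Mettl14) and 37.8% (Mettl3) of all tested genes passed in the time course at 0 h. In the repeat set 36.2% and 35.3% passed. All 4 markers of the primed epiblast rose in both knockdowns of the time course and with Mettl3 knockdown in the repeat set, and 2 of 4 with Mettl14 knockdown there. The mean of 17 fibroblast markers was 6.34 to 6.37 on the scramble arrays at 0 h of the time course, 6.60 to 6.63 with Mettl14 knockdown and 6.52 to 6.57 with Mettl3 knockdown. Of 12 tested fibroblast markers, 4 rose and 0 fell in the Mettl14 knockdown, and 4 rose and 1 fell in the Mettl3 knockdown, near the shares of all tested genes. In scramble the fibroblast mean was 6.53 to 6.61 at 4 h and 6.59 to 6.78 at 8 h. From 0 h to 8 h 5 of the 12 rose and 0 fell, where 60.8% of all tested genes passed. The mean of 6 trophoblast markers was 7.84 to 7.89 in scramble at 0 h of the time course, 8.57 to 8.71 with Mettl14 knockdown and 8.55 to 8.59 with Mettl3 knockdown. In the repeat set it was 8.29 to 8.37 against 9.10 to 9.14 for Mettl14, and 8.22 to 8.27 against 8.70 to 8.72 for Mettl3. Of 5 tested trophoblast markers, 4 rose and 1 fell with Mettl14 and 3 rose and 1 fell with Mettl3 knockdown in each set. Of 5 tested markers of primitive endoderm, 0 rose with Mettl14 and 1 with Mettl3 knockdown in the time course, where 0 fell, and 1 rose and 1 fell with each in the repeat set. The mean of 6 primitive endoderm markers, which included Gata6, too dim to be tested, was 6.84 to 6.93 in scramble at 0 h of the time course. It was 6.49 to 6.60 with Mettl14 knockdown and 6.59 to 6.71 with Mettl3 knockdown, and 6.50 to 6.63 on all 8 arrays of the repeat set. The fibroblast genes Dcn, Lum, Postn, Fap and Dpt were too dim to be tested. The part of these marker shifts in the results on the pathway was not tested, and a change in the mixture of cells and a change in RNA per cell cannot be told apart in bulk RNA.

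At 0 h, knockdown of either gene left a lower level of Lifr, Stat3, Socs3 and Gbx2 transcripts and a higher level of Jak2 transcripts, in the time course and in the repeat set alike. For Socs3 in the repeat set this holds for the brighter of its 2 probe sets only. In the time course, 7 of 9 members passed at an adjusted p under 0.05 with Mettl14 knockdown, 5 lower and 2 higher, where 39.5% of all tested genes passed and 20.1% passed as lower. With Mettl3 knockdown 8 of 9 passed, 6 lower and 2 higher, beside 37.8% of all tested genes and 18.6% as lower. The repeat set gave 7 of 9 with Mettl14 knockdown, 5 lower and 2 higher, beside 36.2% and 16.9% as lower. It gave 7 of 9 with Mettl3 knockdown, 6 lower and 1 higher, beside 35.3% and 17.4% as lower. The members' median log2 change was -0.17 and -0.30 in the Mettl14 and Mettl3 knockdowns of the time course and -0.12 and -0.31 in those of the repeat set. The medians of all tested genes were -0.0035, 0.0031, -0.0013 and 0.0039. These splits depend on the choice of members, which was made with earlier results of these data known, and on the scale. When every array was centred on a panel of 17 reference genes, 7 members passed as lower and 1 as higher with Mettl14 knockdown in the repeat set, beside 74.4% of all tested genes as lower and 5.53% as higher. In the time course 5 were then lower and 0 higher with Mettl14 knockdown, beside 30.1% and 9.75%, and 6 lower and 1 higher with Mettl3 knockdown, beside 19.2% and 12.1%. For Mettl3 knockdown in the repeat set the counts were 6 lower and 1 higher, beside 28.1% and 11.6%. The count for the Mettl14 knockdown of the time course, on the deposited scale, was 4 without replicate 1 of scramble at 0 h and also 4 without replicate 2 of that knockdown.

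**Figure D1:**
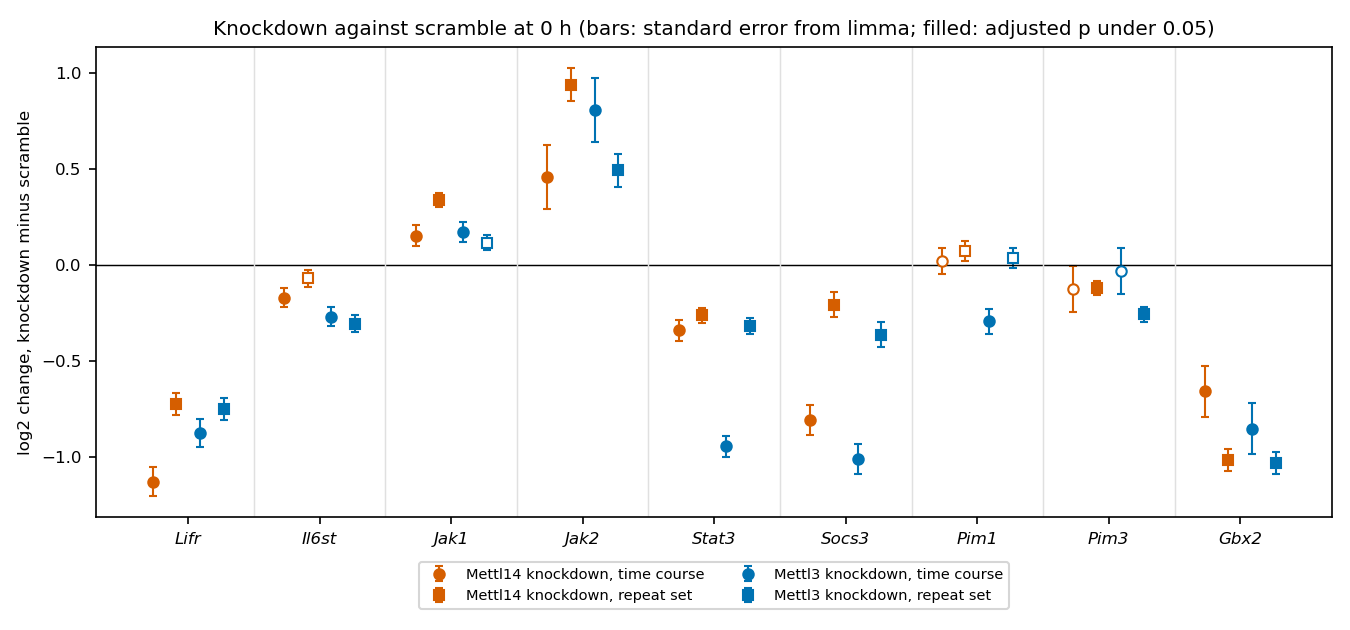
Log2 change at 0 h (knockdown minus scramble) of the 9 genes in 4 comparisons of 2 arrays against 2; bars are standard errors from limma and filled symbols have an adjusted p under 0.05. Lifr, Stat3, Socs3 and Gbx2 lie below 0 and Jak2 lies above 0 in all 4 comparisons.

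Lifr encodes the chain that gives the receptor its specificity for LIF. Its log2 signal at 0 h of the time course was 11.07 and 11.06 on the scramble arrays, 9.96 and 9.92 with Mettl14 knockdown, and 10.14 and 10.24 with Mettl3 knockdown. The repeat set gave 10.38 and 10.34 in the control of the Mettl14 knockdown, whose arrays read 9.71 and 9.56, and 10.47 and 10.42 in the control of the Mettl3 knockdown, whose arrays read 9.70 and 9.68. Every knockdown array lay below its controls. The change with Mettl14 knockdown was -1.13 ± 0.07 (limma's standard error here and throughout, groups of 2), to 45.7% of scramble (adjusted p = 1.7e-07). With Mettl3 knockdown it was -0.88 ± 0.07, to 54.5% (adjusted p = 1.69e-06). Its changes in the repeat set were -0.73 ± 0.06 (adjusted p = 0.000191) and -0.75 ± 0.06 (adjusted p = 0.000197). The Mettl14 effect differed between the sets by -0.40 ± 0.10 (adjusted p = 0.00864), but not past the threshold without replicate 1 of the Mettl14 knockdown in the repeat set (-0.33, adjusted p = 0.0535), nor with panel centring (-0.21, adjusted p = 0.229). The Mettl3 effect differed by -0.13 ± 0.10 (adjusted p = 0.505).

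Lifr stayed low in the knockdowns at the later times. The scramble arrays read 10.95 and 10.98 at 4 h and 10.86 and 10.83 at 8 h. The Mettl14 knockdown arrays read 9.92 and 9.84 at 4 h and 9.75 and 10.01 at 8 h, and the Mettl3 knockdown arrays 10.20 and 10.16, then 10.21 and 10.15. No knockdown array of the time course reached a scramble array of any time. At 8 h Lifr was at 51.3% of scramble with Mettl14 knockdown (-0.96 ± 0.07, adjusted p = 5.51e-07) and at 63% with Mettl3 knockdown (-0.67 ± 0.07, adjusted p = 1.35e-05). The comparisons of both knockdowns share the same scramble arrays.

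Il6st, which encodes gp130, moved less. At 0 h of the time course it read 10.41 and 10.39 in scramble, 10.28 and 10.18 with Mettl14 knockdown and 10.11 and 10.15 with Mettl3 knockdown. The repeat controls read 10.57, 10.58, 10.57 and 10.54, the Mettl14 knockdown 10.46 and 10.55, and the Mettl3 knockdown 10.24 and 10.25. Both Mettl3 knockdowns lay clear of their controls, with changes of -0.27 ± 0.05 (adjusted p = 0.00096) and -0.31 ± 0.05 (adjusted p = 0.00247). The Mettl14 knockdown gave -0.17 ± 0.05 in the time course (adjusted p = 0.0155) and -0.07 ± 0.05 in the repeat set (adjusted p = 0.276), where panel centring gave -0.41 (adjusted p = 0.000258). The former lost its call without replicate 1 of scramble (adjusted p = 0.0773), replicate 2 of scramble (adjusted p = 0.0515) or replicate 2 of the knockdown at 0 h (adjusted p = 0.132). At 8 h neither knockdown differed from scramble past the threshold, with 0.12 ± 0.05 for Mettl14 (adjusted p = 0.0616) and 0.03 ± 0.05 for Mettl3 (adjusted p = 0.679).

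Jak1 and Jak2 encode the tyrosine kinases that gp130-type receptors use to phosphorylate Stat3. Jak2 rose with knockdown. Its log2 signal at 0 h was 7.16 and 7.23 in scramble, 7.77 and 7.54 with Mettl14 knockdown, and 7.96 and 8.05 with Mettl3 knockdown. The repeat set gave 7.44 and 7.53 in the Mettl14 control and 8.36 and 8.49 in that knockdown, and 7.005 and 7.24 in the Mettl3 control and 7.60 and 7.63 in that knockdown. The knockdown arrays lay above their own controls in all 4 comparisons. The Mettl3 change was 0.81 ± 0.17 in the time course, to 175% of scramble (adjusted p = 0.0022), and 0.49 ± 0.09 in the repeat set (adjusted p = 0.00472). The Mettl14 change was 0.94 ± 0.09 in the repeat set, to 192% of its control (adjusted p = 0.000301), and 0.46 ± 0.17 in the time course (adjusted p = 0.0454). The last call was lost with 16 of the 18 arrays left out in turn (adjusted p = 0.0522 to 0.225) and with panel centring (0.32, adjusted p = 0.126).

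Jak2 was also higher at 4 h and 8 h with Mettl3 knockdown, by 0.83 ± 0.17 (adjusted p = 0.00179) and 0.80 ± 0.17 (adjusted p = 0.00203). Those arrays read 8.23 and 8.03 at 4 h and 8.00 and 7.88 at 8 h, above the scramble arrays with 7.37 and 7.23, then 7.19 and 7.08. The Mettl14 knockdown read 7.81 and 7.80 at 4 h, and 7.13 and 7.82 at 8 h, the widest pair of arrays of any member. Its change at 4 h was 0.51 ± 0.17 (adjusted p = 0.0294), lost without replicate 1 (adjusted p = 0.0616) or 2 (adjusted p = 0.146) of scramble or replicate 1 (adjusted p = 0.102) or 2 (adjusted p = 0.0983) of the knockdown at 4 h, and with panel centring (0.27, adjusted p = 0.165). At 8 h the change was 0.34 ± 0.17 (adjusted p = 0.126), and it passed without replicate 1 of the Mettl14 knockdown at 8 h (0.69, adjusted p = 0.000617).

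Jak1 shifted by small amounts. At 0 h it read 10.05 and 10.18 in scramble, 10.23 and 10.30 with Mettl14 knockdown and 10.25 and 10.32 with Mettl3 knockdown. The changes of 0.15 ± 0.05 (adjusted p = 0.0391) and 0.17 ± 0.05 (adjusted p = 0.0231) passed. The Mettl14 call was lost with 8 of the 18 arrays left out in turn. Without replicate 1 of scramble at 0 h they were 0.09 (adjusted p = 0.314) and 0.11 (adjusted p = 0.217). With panel centring they were 0.0098 (adjusted p = 0.941) and 0.11 (adjusted p = 0.36). Replicate 2 of each knockdown at 0 h also decided them, with 0.12 (adjusted p = 0.209) for Mettl14 and 0.14 (adjusted p = 0.134) for Mettl3 without it. The Mettl14 knockdown of the repeat set read 10.26 on both arrays against 9.91 and 9.94 in its control, a rise of 0.34 ± 0.04 (adjusted p = 0.000786). Panel centring moved the median change of all tested genes in this comparison from -0.0013 to -0.34 and the change of Jak1 to 0.0018. The Mettl3 knockdown read 9.97 and 9.96 against 9.86 and 9.85, a change of 0.11 ± 0.04 (adjusted p = 0.0586).

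Stat3, the transcription factor at the end of the cascade, was lower in both knockdowns of both sets. At 0 h of the time course it read 11.29 and 11.23 in scramble, 10.90 and 10.94 with Mettl14 knockdown, and 10.36 and 10.27 with Mettl3 knockdown. In the repeat set it read 10.74 and 10.71 against 10.44 and 10.48 for Mettl14, and 10.78 and 10.80 against 10.49 and 10.46 for Mettl3. No knockdown array overlapped its controls. The Mettl3 change was -0.95 ± 0.05 in the time course, to 51.9% of scramble (adjusted p = 6.95e-08), but -0.32 ± 0.04 in the repeat set, to 80.2% (adjusted p = 0.00142). The difference between the sets was -0.63 ± 0.07 (adjusted p = 1.05e-05). The Mettl14 changes were -0.34 ± 0.05 (adjusted p = 0.000341) and -0.26 ± 0.04 (adjusted p = 0.00295), and differed by -0.08 ± 0.07 (adjusted p = 0.5). At 0 h of the time course Stat3 was 0.61 ± 0.05 higher in the Mettl14 than in the Mettl3 knockdown (adjusted p = 9.38e-05).

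With Mettl3 knockdown, Stat3 fell further during the time course. It went from 10.36 and 10.27 at 0 h to 10.14 and 10.09 at 4 h and 10.06 and 9.97 at 8 h, while the scramble arrays read 11.41 and 11.41 at 4 h and 11.41 and 11.34 at 8 h. The Mettl14 knockdown read 10.98 and 10.98 at 4 h and 11.05 and 10.98 at 8 h. Thus the 3 treatments stayed apart at every time, scramble highest and Mettl3 knockdown lowest. From 0 h to 8 h Stat3 changed by -0.30 ± 0.05 with Mettl3 knockdown (adjusted p = 0.000485), and this change differed from that in scramble by -0.42 ± 0.08 (adjusted p = 0.0129). The difference missed the threshold without replicate 2 of scramble at 0 h (-0.39, adjusted p = 0.0529) or replicate 1 of Mettl3 knockdown at 0 h (-0.37, adjusted p = 0.055). At 8 h Stat3 with Mettl3 knockdown was at 38.9% of scramble (-1.36 ± 0.05, adjusted p = 3.55e-09). The Mettl14 knockdown gave 77.8% at 8 h (-0.36 ± 0.05, adjusted p = 0.000176).

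The probe set listed with Mettl3 and Tox4 moved over the same arrays. With Mettl3 knockdown it read 9.09 and 9.20 at 0 h, 8.53 and 8.12 at 4 h and 8.04 and 8.02 at 8 h, a change of -1.12 ± 0.10 from 0 h to 8 h (adjusted p = 2.44e-06). In scramble it read 11.05 and 11.03 at 0 h and 10.65 and 10.71 at 8 h. The difference between these changes was -0.75 ± 0.14 (adjusted p = 0.0138). Its knockdown effect at 0 h was -1.89 in the time course and -2.08 in the repeat set, 0.19 ± 0.13 apart (adjusted p = 0.446), whereas that of Stat3 differed between the sets. Whether the depth of the knockdown bears on Stat3 was not tested.

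**Figure D2:**
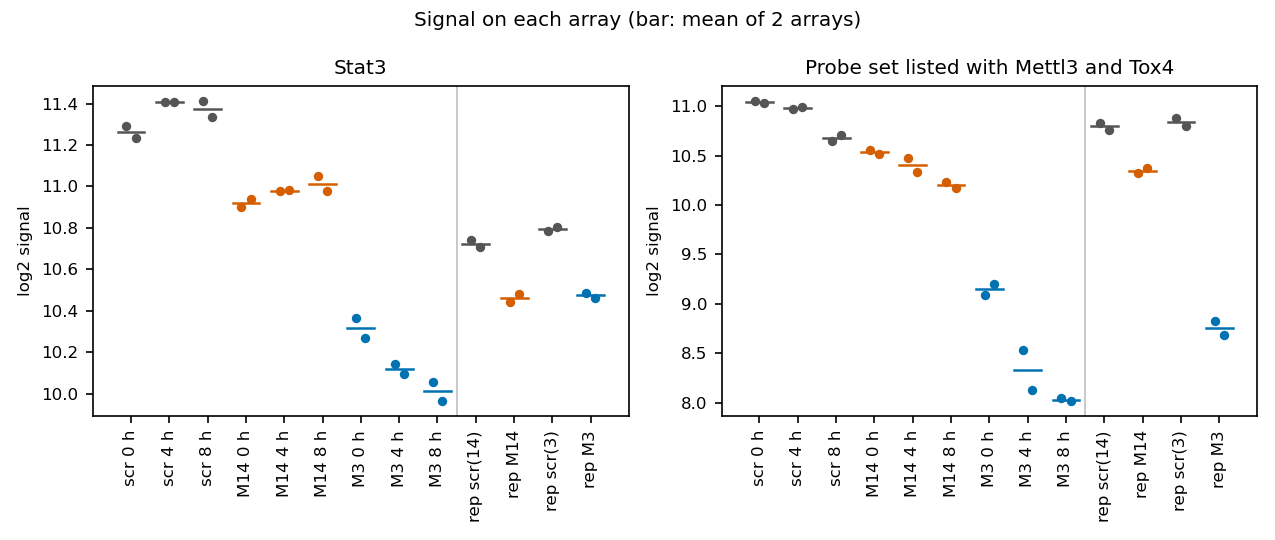
Log2 signal of Stat3 (left) and of the probe set listed with Mettl3 and Tox4 (right) on each of 26 arrays in 13 groups (scr, scramble; M14 and M3, knockdowns of Mettl14 and Mettl3; rep, repeat set, with scr(14) and scr(3) the controls of each knockdown); bars are means of 2 arrays and the axes do not start at 0. Both are lowest at 8 h with Mettl3 knockdown, at 10.06 and 9.97 for Stat3.

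Socs3, the feedback inhibitor, was lower at 0 h in every knockdown by its brighter probe set. It read 9.59 and 9.83 in scramble of the time course, 8.93 and 8.88 with Mettl14 knockdown, and 8.75 and 8.65 with Mettl3 knockdown. The repeat set gave 9.32 and 9.16 against 9.03 and 9.04 for Mettl14, and 9.21 and 9.26 against 8.81 and 8.92 for Mettl3. The groups did not overlap in any of these comparisons. The time course gave -0.81 ± 0.08, to 57.1% of scramble (adjusted p = 5.54e-06), and -1.01 ± 0.08, to 49.6% (adjusted p = 9.05e-07). The repeat set gave -0.21 ± 0.06 for Mettl14 (adjusted p = 0.0443) and -0.37 ± 0.06 for Mettl3 (adjusted p = 0.00533). There the dimmer probe set changed by 0.09 for Mettl14 (adjusted p = 0.373) and 0.0054 for Mettl3 (adjusted p = 0.961). The Mettl14 call of the repeat set was lost with 5 of the 8 arrays left out in turn (adjusted p = 0.0638 to 0.203) and with the mean of both probe sets (-0.06, adjusted p = 0.464). The effects in the time course were larger than those in the repeat set by -0.60 ± 0.11 (adjusted p = 0.000833) and -0.65 ± 0.11 (adjusted p = 0.000775).

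Gbx2, the homeobox gene, fell with knockdown in both sets. It read 10.19 and 10.24 in scramble at 0 h of the time course, 9.39 and 9.73 with Mettl14 knockdown and 9.33 and 9.40 with Mettl3 knockdown. Its repeat set arrays read 10.02 and 10.06 against 8.94 and 9.10 for Mettl14, and 10.20 and 10.18 against 9.17 and 9.14 for Mettl3. The knockdown arrays all lay below their controls. The changes were -0.66 ± 0.13 (adjusted p = 0.00162) and -0.85 ± 0.13 (adjusted p = 0.000265) in the time course. They were -1.02 ± 0.06, to 49.5% (adjusted p = 6.13e-05), and -1.03 ± 0.06, to 48.9% (adjusted p = 6.82e-05), in the repeat set. The differences between the sets, 0.36 ± 0.17 (adjusted p = 0.167) and 0.18 ± 0.17 (adjusted p = 0.593), did not pass.

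The Pim kinases moved little at 0 h. Pim1 read 10.68 and 10.56 in scramble, 10.65 and 10.63 with Mettl14 knockdown and 10.33 and 10.31 with Mettl3 knockdown, which alone lay below scramble. The Mettl3 change was -0.30 ± 0.07 (adjusted p = 0.00411), and Pim1 was 0.32 ± 0.07 higher in the Mettl14 than in the Mettl3 knockdown (adjusted p = 0.017). The latter difference was lost without either array of either knockdown at 0 h (adjusted p = 0.0674 to 0.0918) and with panel centring (0.24, adjusted p = 0.179). The 8 arrays of the repeat set lay between 10.47 and 10.60, and the Mettl3 change there was 0.04 ± 0.05 (adjusted p = 0.634). Pim3 read 9.35 and 9.64 in scramble at 0 h, 9.25 and 9.49 with Mettl14 knockdown and 9.59 and 9.34 with Mettl3 knockdown, so the 3 groups overlapped. Their changes, with 95% intervals of -0.39 to 0.13 for Mettl14 and -0.29 to 0.23 for Mettl3, did not pass (adjusted p = 0.446 and 0.862). In the repeat set, where replicates lay closer, Pim3 read 10.07 and 10.08 in the Mettl3 control and 9.82 and 9.82 in that knockdown (-0.26 ± 0.04, adjusted p = 0.00254). It read 10.10 and 10.09 in the Mettl14 control and 9.97 and 9.98 in that knockdown (-0.12 ± 0.04, adjusted p = 0.0478). The Mettl14 call was lost with each of the 8 arrays left out in turn (adjusted p = 0.0671 to 0.157).

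**Figure D3:**
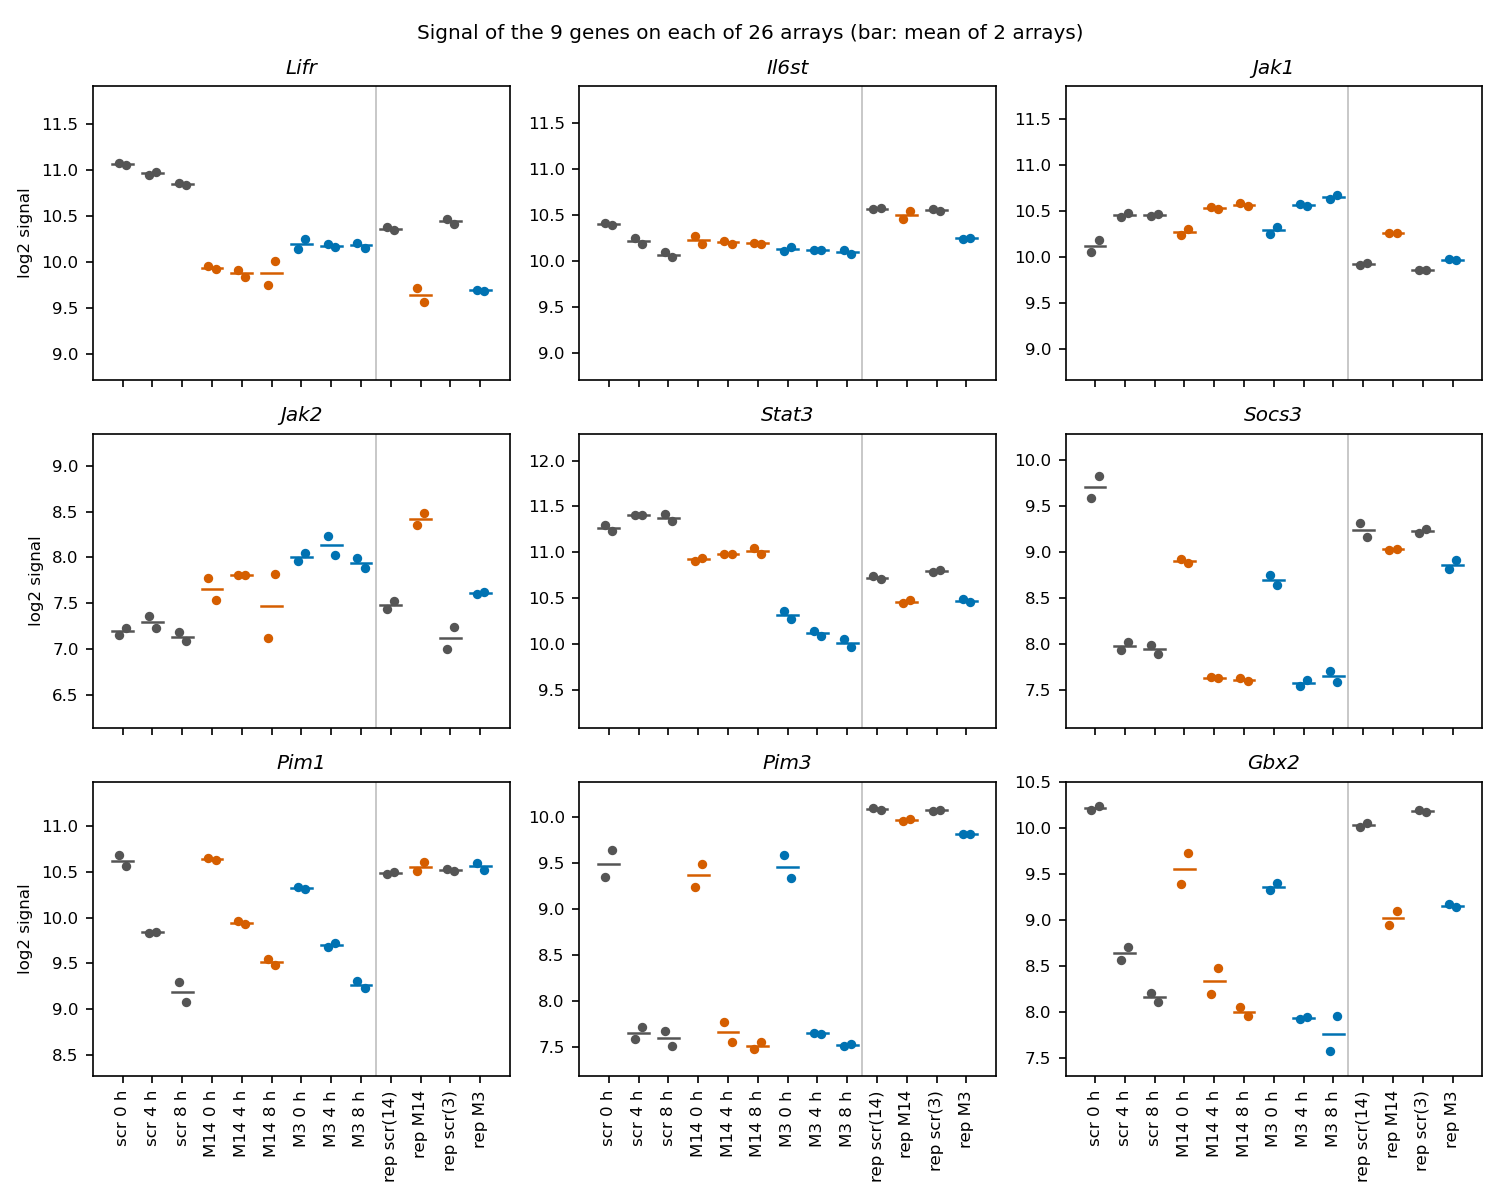
Log2 signal of the 9 genes on each of 26 arrays in 13 groups of 2, all panels with axes of equal length that do not start at 0; labels read scr for scramble, M14 and M3 for the knockdowns, and rep for the repeat set with its controls scr(14) and scr(3). Within each set, Lifr and Stat3 separate knockdown (coloured) from scramble (grey) at every time, while Socs3, Pim1, Pim3 and Gbx2 separate 0 h from 4 h and 8 h.

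At 4 h the members that passed against scramble were 4 of 9 with Mettl14 knockdown, 3 lower and 1 higher, and 5 of 9 with Mettl3 knockdown, 4 lower and 1 higher, where 39.5% and 37.8% of all tested genes passed. At 8 h they were 4 of 9, with 3 lower and 1 higher, and 6 of 9, with 4 lower and 2 higher, beside 43.6% and 42.8%. Lifr, Stat3 and the brighter probe set of Socs3 were lower in all of these comparisons. The dimmer probe set of Socs3 gave -0.26 at 4 h (adjusted p = 0.0895) and -0.046 at 8 h (adjusted p = 0.781) with Mettl14 knockdown, and -0.29 (adjusted p = 0.062) and -0.40 (adjusted p = 0.0129) with Mettl3 knockdown. By the brighter probe set, Socs3 was at 78.5% of scramble at 4 h (adjusted p = 0.00326) and 79.6% at 8 h (adjusted p = 0.00431) with Mettl14 knockdown. With Mettl3 knockdown it was at 75.6% (adjusted p = 0.00135) and 81.6% (adjusted p = 0.00921), the last lost without replicate 1 of scramble (adjusted p = 0.0712) or replicate 2 of the knockdown at 8 h (adjusted p = 0.077). Gbx2 was at 61.4% of scramble at 4 h with Mettl3 knockdown (adjusted p = 0.00109) and at 76% at 8 h (adjusted p = 0.029). The 8 h call was lost without replicate 1 (adjusted p = 0.127) or 2 (adjusted p = 0.062) of scramble or replicate 1 of the knockdown (-0.20, adjusted p = 0.291). With Mettl14 knockdown Gbx2 changed by -0.30 ± 0.13 at 4 h (adjusted p = 0.091) and -0.16 ± 0.13 at 8 h (adjusted p = 0.38). Pim1 was higher than scramble at 8 h with Mettl14 knockdown, 9.54 and 9.49 against 9.29 and 9.08 (0.33 ± 0.07, adjusted p = 0.00161), a rise that was 0.18 with panel centring (adjusted p = 0.128). Jak1 was higher at 8 h with Mettl3 knockdown by 0.20 ± 0.05 (adjusted p = 0.00966), which was 0.03 with panel centring and missed the threshold without replicate 1 of scramble at 8 h (adjusted p = 0.05) or replicate 2 of the knockdown at 8 h (adjusted p = 0.0594).

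By the probe sets used, the target genes fell steeply within the first 4 h in every treatment, whereas the receptor chains, kinases and Stat3 moved by at most 0.36 over 8 h on the deposited log2 scale. The dimmer probe set of Gbx2 did not pass as lower in any treatment. In scramble, 7 of 9 members passed from 0 h to 4 h, 5 lower and 2 higher, where 46.3% of all tested genes passed. From 0 h to 8 h 7 of 9 passed, 6 lower and 1 higher, beside 60.8% of all tested genes and 21.6% as lower. With Mettl14 knockdown 5 of 9 passed at 4 h and 5 of 9 at 8 h, 4 lower and 1 higher each time, beside 46.2% and 56.2%, and 19.4% as lower at 8 h. With Mettl3 knockdown 6 of 9 passed at 4 h and 6 of 9 at 8 h, 5 lower and 1 higher each time, beside 44.6% and 56.1%, and 19.2% as lower at 8 h. With panel centring, 8 members passed as lower from 0 h to 8 h and 0 as higher in each treatment, beside 43.8% of all tested genes as lower in scramble, 46.8% with Mettl14 and 63.2% with Mettl3 knockdown. On the deposited scale the members' median 8 h change was -0.33 in scramble, -0.18 with Mettl14 knockdown and -0.30 with Mettl3 knockdown. The medians of all tested genes were 0.15, 0.12 and 0.11.

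**Figure D4:**
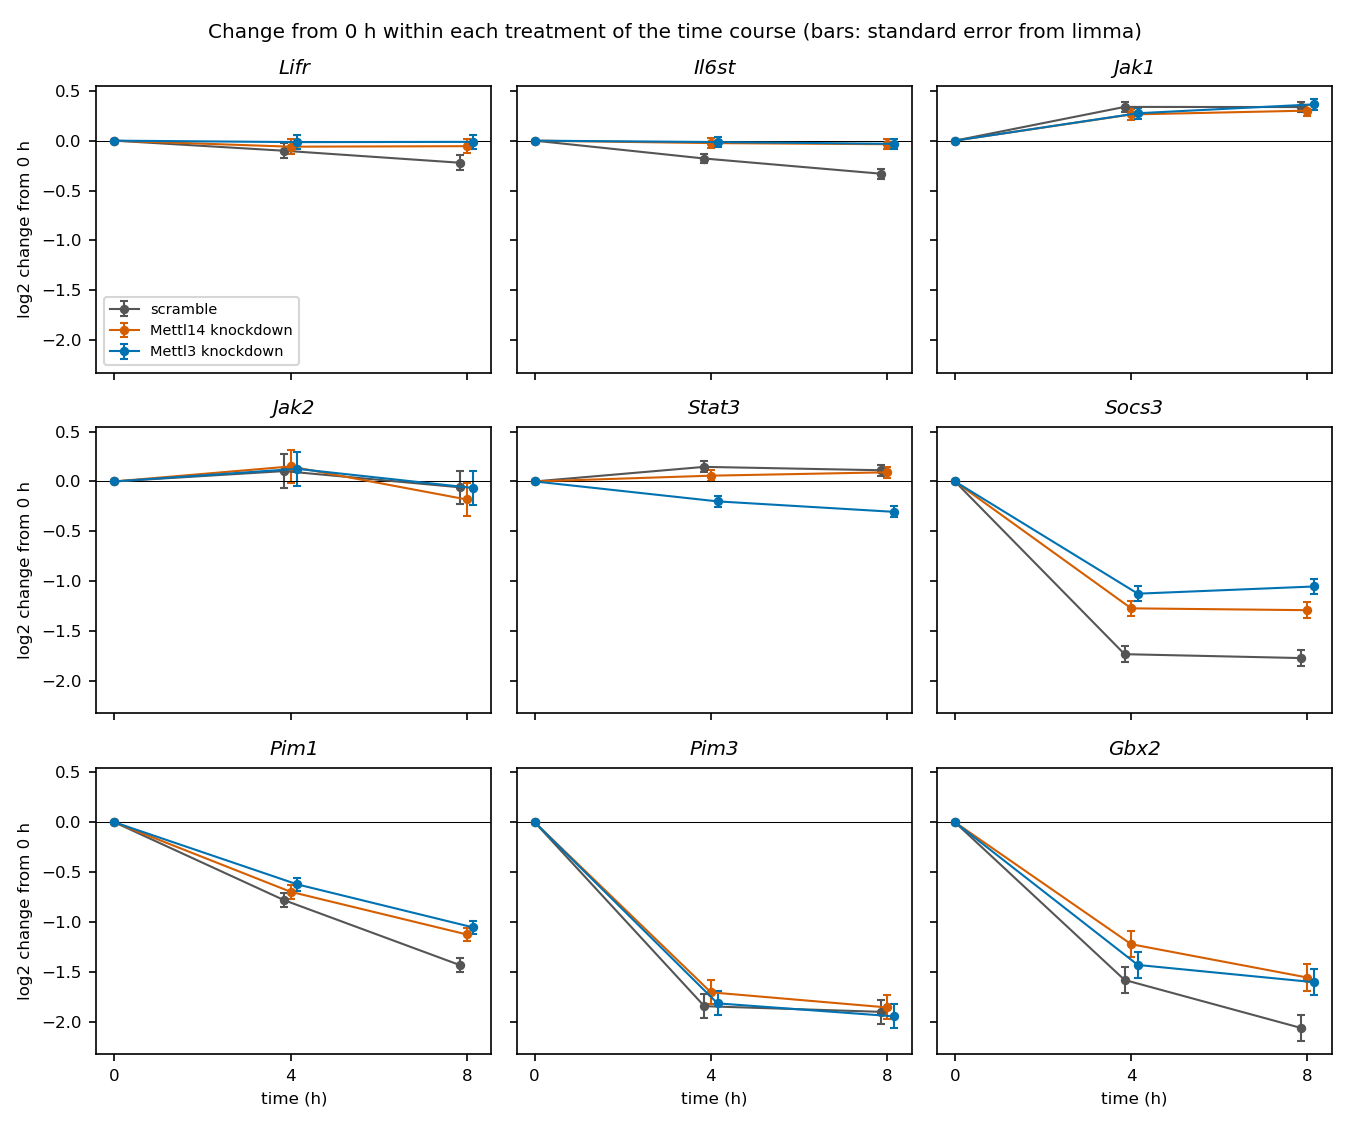
Log2 change from 0 h at 4 h and 8 h within scramble, Mettl14 knockdown and Mettl3 knockdown of the time course, with standard errors from limma (2 arrays a group; points of the treatments are set apart sideways). Socs3, Pim1, Pim3 and Gbx2 fall in all 3 treatments, and the lowest point is Gbx2 in scramble at 8 h, at -2.06. Gbx2 is drawn from its brighter probe set, and its dimmer one did not pass as lower.

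Pim3 had the largest fall by 4 h in scramble. It went from 9.35 and 9.64 to 7.59 and 7.71 at 4 h and 7.68 and 7.51 at 8 h, with 27.9% of the 0 h level left at 4 h and 26.8% at 8 h (8 h change -1.90 ± 0.12, adjusted p = 8.64e-08). The Mettl14 knockdown read 7.77 and 7.55 at 4 h and 7.47 and 7.55 at 8 h. The Mettl3 knockdown read 7.66 and 7.64, then 7.51 and 7.53. At each time the arrays of the 3 treatments overlapped. The 8 h changes of -1.86 ± 0.12 and -1.95 ± 0.12 in the knockdowns differed from that in scramble by 0.04 (95% interval -0.32 to 0.41) and -0.045 (95% interval -0.41 to 0.32).

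Socs3 also lost most of its signal by 4 h and then stayed level. The scramble arrays read 7.94 and 8.02 at 4 h and 7.99 and 7.89 at 8 h. The Mettl14 knockdown read 7.64 and 7.63, then 7.63 and 7.59, and the Mettl3 knockdown 7.54 and 7.61, then 7.71 and 7.59. All knockdown arrays at 4 h and 8 h lay below all scramble arrays of those times, by less than at 0 h. At 8 h, 29.3% of the 0 h level was left in scramble (-1.77 ± 0.08, adjusted p = 5.55e-09), 40.9% with Mettl14 knockdown and 48.2% with Mettl3 knockdown. The smaller fall with Mettl3 knockdown differed from scramble by 0.72 ± 0.11 (adjusted p = 0.00538), and that with Mettl14 knockdown by 0.48 ± 0.11 (adjusted p = 0.0297). The former missed the threshold with the mean of both probe sets (0.44, adjusted p = 0.0695). The latter was lost with 6 of the 18 arrays left out in turn, among them replicate 2 of scramble at 0 h (0.36, adjusted p = 0.089), and with panel centring (0.47, adjusted p = 0.0745). The dimmer probe set alone gave differences from scramble of 0.17 with Mettl3 (adjusted p = 0.597) and 0.50 with Mettl14 knockdown (adjusted p = 0.104). In each knockdown the fall began from a lower 0 h level.

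Pim1 and the brighter probe set of Gbx2 fell at 4 h and again by 8 h in scramble. Pim1 read 9.83 and 9.85 at 4 h and 9.29 and 9.08 at 8 h, with 58.2% and then 37% of the 0 h level left. The step from 4 h to 8 h was -0.65 ± 0.07 in scramble (adjusted p = 5.87e-05), -0.43 ± 0.07 with Mettl14 knockdown (adjusted p = 0.00203) and -0.43 ± 0.07 with Mettl3 knockdown (adjusted p = 0.00198). The 4 h to 8 h step was passed by 2 of 9 members in scramble (14.9% of all tested genes) and by 1 of 9, Pim1, in each knockdown (7.99% and 7.84%). Gbx2 read 8.57 and 8.71 at 4 h and 8.20 and 8.11 at 8 h in scramble, with 33.4% and then 24% left. Its 8 h change of -2.06 ± 0.13 (adjusted p = 9.86e-08) was the largest of the members. Its further step of -0.48 ± 0.13 after 4 h (adjusted p = 0.0284) was lost without any of the 4 scramble arrays compared (adjusted p = 0.0612 to 0.167). The knockdowns kept 34% and 32.9% of Gbx2 and 45.9% and 48.1% of Pim1 at 8 h, and these changes differed from those in scramble by 0.50 ± 0.19 and 0.46 ± 0.19 for Gbx2 (adjusted p = 0.159 and 0.208). For Pim1 the differences were 0.31 ± 0.10 and 0.38 ± 0.10 (adjusted p = 0.0919 and 0.0512). Neither gene passed. Of the 9 members, 2 passed this test of the difference with Mettl14 and 3 with Mettl3 knockdown, beside 4.99% and 3.47% of all tested genes.

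The upstream genes moved less with time, and their calls depended on the scaling. Il6st in scramble went from 10.41 and 10.39 to 10.26 and 10.19 at 4 h and 10.10 and 10.04 at 8 h, a change of -0.33 ± 0.05 by 8 h (adjusted p = 0.000117). In the knockdowns all 12 arrays lay between 10.08 and 10.28, and the 8 h changes of -0.04 ± 0.05 and -0.03 ± 0.05 did not pass. The difference from scramble was 0.30 ± 0.07 for Mettl14 (adjusted p = 0.0332) and 0.30 ± 0.07 for Mettl3 (adjusted p = 0.038). These differences were lost with 6 and with 13 of the 18 arrays left out in turn (adjusted p = 0.071 to 0.119 and 0.0532 to 0.135). With panel centring they were 0.29 (adjusted p = 0.339) and 0.19 (adjusted p = 0.47), and Il6st fell in the knockdowns too, by 0.42 and 0.51. Lifr then also fell in both, by 0.44 (adjusted p = 0.00117) and 0.49 (adjusted p = 0.000349). On the deposited scale Lifr changed in scramble by -0.22 ± 0.07 over 8 h (adjusted p = 0.0199), a call lost without any of the 4 arrays compared (adjusted p = 0.0513 to 0.0835). Jak1 was 0.34 ± 0.05 higher at 8 h than at 0 h in scramble (adjusted p = 0.000179), but its change was -0.037 with panel centring, which moved the median of all tested genes from 0.15 to -0.23. The rises with knockdown, 0.30 ± 0.05 (Mettl14) and 0.36 ± 0.05 (Mettl3), likewise became -0.082 and -0.12. Jak2 changed by -0.06 ± 0.17 in scramble (95% interval -0.42 to 0.31), and by -0.43 with panel centring (adjusted p = 0.0355). Stat3 at 8 h of scramble was 0.11 ± 0.05 above 0 h (adjusted p = 0.0937), but with panel centring its change was -0.26 (adjusted p = 0.0169).

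The 3 genes with a second, dimmer probe set did not always give the same picture. The second probe set of Gbx2 did not fall with time: it read 7.78 and 7.87 in scramble at 0 h and 7.87 and 7.99 at 8 h (0.10 ± 0.08, adjusted p = 0.286), and was higher at 8 h than at 0 h in both knockdowns (0.20 ± 0.08, adjusted p = 0.0499, and 0.22 ± 0.08, adjusted p = 0.0321). It was lower in the knockdowns at 0 h, as the brighter one was, by -0.39 ± 0.08 and -0.53 ± 0.08 in the time course and -0.32 ± 0.05 and -0.21 ± 0.05 in the repeat set. The second probe set of Socs3 fell with time in scramble (-0.81 ± 0.11, adjusted p = 6.78e-05) and with knockdown in the time course (-0.55 ± 0.11 and -0.57 ± 0.11). It changed in the repeat set by 0.09 ± 0.07 and 0.0054 ± 0.07, opposite in sign to the brighter probe set. The second probe set of Pim1 fell by 0.50 ± 0.08 over 8 h in scramble (adjusted p = 0.000287) and did not pass in any knockdown comparison. The level of one probe set cannot be set against that of another, and the fall of Gbx2 with time rests on 1 of its 2 probe sets.

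**Figure D5:**
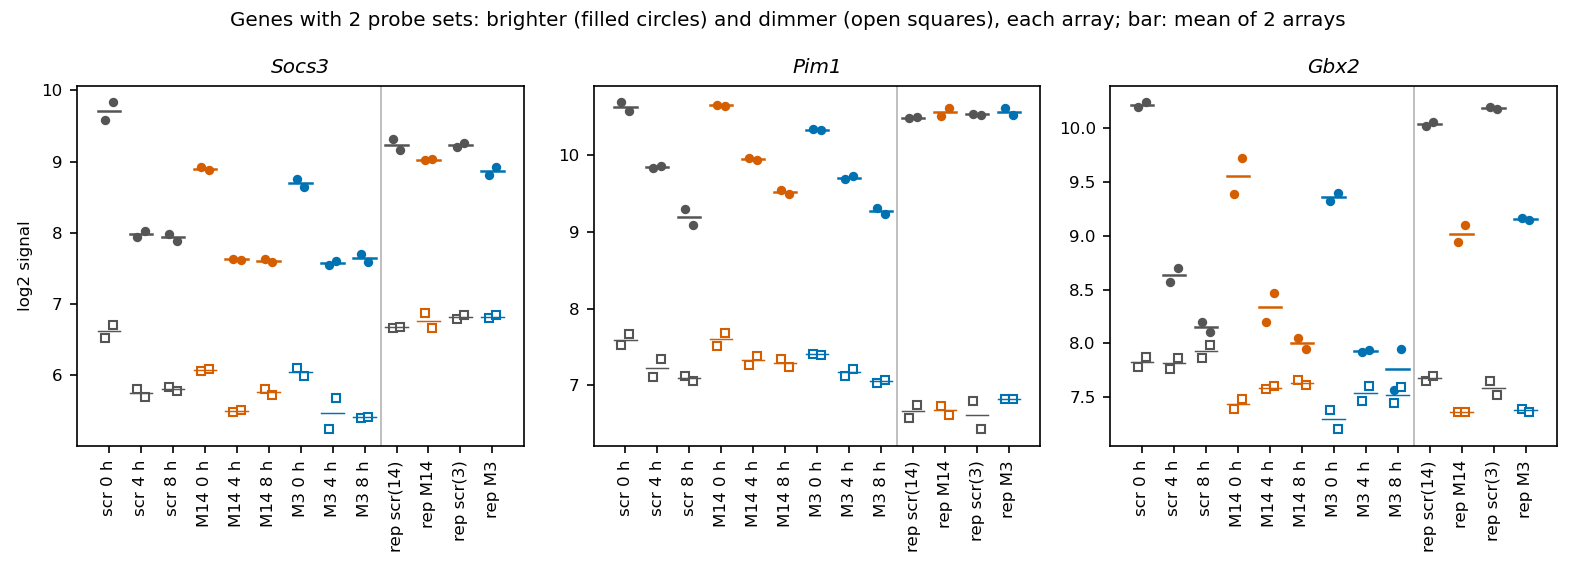
Log2 signal of the brighter (filled circles) and dimmer (open squares) probe sets of Socs3, Pim1 and Gbx2 on each of 26 arrays in 13 groups, labelled scr for scramble, M14 and M3 for the knockdowns and rep for the repeat set; bars are means of 2 arrays and the axes do not start at 0. The dimmer Gbx2 probe set stays between 7.20 and 7.99 over all times, while the brighter one falls from above 10 to near 8 in scramble.

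Between the sets, the 0 h effect of Mettl14 knockdown differed for 2 of 9 members, Lifr and Socs3, where 16.5% of all tested genes differed. That of Mettl3 knockdown differed for 3 of 9, Stat3, Socs3 and Pim1, beside 9.81%. For Pim1 the difference was -0.33 ± 0.09 (adjusted p = 0.0238), lost with 6 of the 26 arrays left out in turn (adjusted p = 0.0507 to 0.108) and with panel centring (adjusted p = 0.133). The knockdowns differed from each other at 0 h of the time course for 2 of 9 members, Stat3 and Pim1, beside 6.07%. For Lifr the difference between the knockdowns was -0.25 ± 0.07 (adjusted p = 0.066) and for Socs3 0.20 ± 0.08 (adjusted p = 0.169), and for Jak2 -0.35 ± 0.17 (adjusted p = 0.277).

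Levels of the time course and of the repeat set can be set side by side only if all 26 arrays were processed together, which is not given in the sources used here. Over the 13 groups, mean levels spanned 2.58 for Pim3, 2.46 for Gbx2 and 2.14 for Socs3 on the log2 scale, 1.30 to 1.45 for Lifr, Jak2, Stat3 and Pim1, 0.80 for Jak1 and 0.50 for Il6st. Lifr was highest in the 3 scramble groups of the time course (means 11.07, 10.97 and 10.85), then in the repeat controls (10.44 and 10.36), and lowest in the repeat knockdowns (9.69 and 9.64). Neighbours in that order overlapped in 5 of 12 cases, all of them between knockdown groups. Stat3 ran from 11.41 in scramble at 4 h to 10.01 in the Mettl3 knockdown at 8 h, with 3 of 12 neighbours overlapping. Il6st had 9 of 12 neighbours overlapping. Pim3 was highest in the 4 groups of the repeat set (means 9.82 to 10.09), above every array of the time course. Both repeat scramble arrays described as 4 h read 10.09 and 10.08 for Pim3, near their replicates at 10.10 and 10.07 and unlike the 4 h scramble arrays at 7.59 and 7.71.

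As a description of likeness, each gene's 13 group means, centred within each set, were correlated with those of the members. All groups come from the same arrays, so these values carry no test. Lifr was most like Ranbp17 (r = 0.995), Fbxo15 (r = 0.990) and Smoc1 (r = 0.985). Stat3 was most like Guf1 (r = 0.955), Oga (r = 0.946) and Gtpbp1 (r = 0.945), and Jak2 like Retreg1 (r = 0.967), Ephx3 (r = 0.958) and Rassf4 (r = 0.957). Socs3 was most like Mir677 (r = 0.987), Nfkbid (r = 0.979) and Nr1d1 (r = 0.976), and Gbx2 like Zfp819 (r = 0.989), Nfkbid (r = 0.986) and Pvt1 (r = 0.980). Pim1 was most like Zfp759 (r = 0.992), Rapgef6 (r = 0.990) and Dyrk1a (r = 0.988), and Pim3 like Mir5099 (r = 0.995), Zfp599 (r = 0.994) and H4f16 (r = 0.991). Jak1 was most like Srebf2, Maff and Igf2r (r = 0.976, 0.975 and 0.970). For Il6st the highest values were lower, with Zim1, Csrnp3 and Kdm4b (r = 0.882, 0.882 and 0.881).

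The wider pathway was read from lists of its ligands, other receptor chains, other kinases and STAT factors, inhibitors, adaptors and further responsive genes, of which 54 were tested. With Mettl14 knockdown at 0 h, 14 rose and 16 fell in the time course, where 39.5% of all tested genes passed, and 14 rose and 16 fell in the repeat set, beside 36.2%. With Mettl3 knockdown 15 rose and 15 fell, beside 37.8%, and 11 rose and 13 fell, beside 35.3%. With panel centring the counts were 5 higher and 21 lower, then 4 and 37, for Mettl14, and 10 and 15, then 5 and 18, for Mettl3 knockdown. The median change over the 54 genes was 0.02 with either knockdown in the time course, and 0.03 (Mettl14) and -0.0067 (Mettl3) in the repeat set, beside the medians of all tested genes given above.

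Among 6 tested ligands, Lif itself rose in the time course, by 0.40 ± 0.13 with Mettl14 (adjusted p = 0.0319) and 0.44 ± 0.13 with Mettl3 knockdown (adjusted p = 0.0212). These calls were lost without either scramble array at 0 h (adjusted p = 0.0667 to 0.121) and without replicate 2 of the knockdown at 0 h (0.24, adjusted p = 0.266, and 0.28, adjusted p = 0.183). It changed by 0.23 ± 0.05 with Mettl14 knockdown in the repeat set (adjusted p = 0.0124), a change that was -0.11 with panel centring and lost its call without replicate 2 of the control (adjusted p = 0.0714) or of the knockdown (adjusted p = 0.0692), and by -0.02 ± 0.05 with Mettl3 knockdown there (adjusted p = 0.843). Clcf1, another ligand of this family, rose with Mettl3 knockdown by 0.46 ± 0.11 (adjusted p = 0.00442) and 0.52 ± 0.08 (adjusted p = 0.00363). The first of these calls, in the time course, was lost in 1 of 27 alternative settings. Of 4 further receptor chains, 3 rose in each knockdown of the time course, including the oncostatin M receptor chain Osmr (0.44 ± 0.11 and 0.52 ± 0.11) and the interleukin-6 receptor chain Il6ra (0.37 ± 0.08 and 0.30 ± 0.08). In the repeat set 1 rose and 1 fell with Mettl14, and 0 rose and 1 fell with Mettl3 knockdown. The shares of all tested genes that passed were 39.5% and 37.8% in the time course, and 36.2% and 35.3% in the repeat set. In the time course, Osmr lost its Mettl14 call in 1 of 27 alternative settings. Il6ra lost its Mettl14 call in 1 and its Mettl3 call in 2 of 28. Osmr, with a mean of 6.06, lay near the lowest mean tested, 6.00.

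Of 6 other kinases and STAT factors, 3 passed one way in all 4 knockdown comparisons at 0 h and are named for that. Across comparisons their agreement was thus fixed by the choice. The share of all tested genes passing one way in all 4 was not computed. Stat4 fell to 52.8% and 42.4% of scramble in the time course and 50.7% and 44.2% in the repeat set (Mettl14, then Mettl3). The Janus kinase Tyk2 fell to between 75.0% and 82.9% in the 4 comparisons, and Stat6 rose to between 114% and 126%. Of 14 inhibitors, 3 rose and 4 fell with Mettl14 knockdown and 3 rose and 5 fell with Mettl3 knockdown in the time course, and 2 rose and 3 fell, then 0 rose and 1 fell, in the repeat set. Of all tested genes, 39.5% and 37.8% passed in the time course, and 36.2% and 35.3% in the repeat set. Pias2, an inhibitor of STAT proteins, fell in all 4 comparisons, by 0.31 to 0.44, and is named as the 1 inhibitor of the 14 that passed one way in all 4. Socs6, of the same family as Socs3, rose by 0.22, 0.45 and 0.38 in both knockdowns of the time course and the Mettl14 knockdown of the repeat set, and changed by 0.19 with Mettl3 knockdown there. Both of its Mettl14 calls were lost with panel centring (0.08, adjusted p = 0.493, and 0.047, adjusted p = 0.597). The call in the time course was also lost without any of the 4 arrays compared (adjusted p = 0.0614 to 0.121), and that in the repeat set without replicate 2 of the control (adjusted p = 0.0674) or replicate 1 of the knockdown (adjusted p = 0.0654). Of 9 adaptors toward the ERK and PI3K pathways, 2 passed one way in all 4 comparisons and are named for that. The kinase Akt1 rose by 0.15 to 0.51, and Pdpk1, the kinase that activates Akt, fell by 0.20 to 0.54, in all 4 comparisons. With panel centring the change of Stat6 in the Mettl14 knockdown of the repeat set was -0.076, and that of Akt1 in the Mettl14 knockdown of the time course was 0.01. With 1 array left out, calls were also lost for Tyk2 in the time course (adjusted p = 0.0856 to 0.155), for Akt1 with Mettl14 knockdown there (adjusted p = 0.0626 and 0.0985), and for Stat6 (0.067 to 0.126) and Pdpk1 (0.0621 to 0.11) with Mettl3 knockdown in the repeat set.

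Further genes known to respond to LIF or Stat3 in ES cells moved both ways with knockdown. Of 15 tested, 3 rose and 6 fell in each knockdown of the time course, and 4 rose and 9 fell, then 3 rose and 8 fell, in the repeat set. The shares of all tested genes that passed were 39.5% and 37.8% (Mettl14, then Mettl3) in the time course, and 36.2% and 35.3% in the repeat set. The 4 genes named next were picked from the 7 of 15 that passed one way in all 4 comparisons, so their agreement was fixed by the choice. Klf4, a pluripotency factor driven by Stat3, fell to 43.6% and 37.9% of scramble in the time course and to 73.7% and 59.9% in the repeat set. Icam1, an adhesion molecule, fell to between 62.3% and 68.5%. Pim2, the third Pim kinase, rose to 229.6% and 286% in the time course and to 153% and 242% in the repeat set, and Ier3, an immediate early gene, rose to between 156% and 211%. With time the same list fell: 11 of 15 were lower and 2 higher at 8 h in scramble, with a median of -0.78 beside 0.15 for all tested genes. The counts were 11 lower and 3 higher with Mettl14 knockdown (median -0.53), and 12 lower and 1 higher with Mettl3 knockdown (median -0.64). Of all tested genes, 21.6%, 19.4% and 19.2% passed as lower in these comparisons. With panel centring 14, 12 and 14 of the 15 were lower, beside 43.8%, 46.8% and 63.2%. Klf4 kept 23.4% of its 0 h level in scramble and 47.4% and 47.8% in the knockdowns, where its fall began from the lower 0 h levels given above. No test of the difference between these falls is reported here, so they are not called different.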

How the data were processed

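Expression was measured with the Affymetrix Mouse Gene 2.0 ST array on poly(A) RNA of J1 cells. The deposited values are log2 signals, for which the submitters' processing notes name RMA and oligo; versions, and whether all 26 arrays were processed together, are not given in the sources used here. Probe sets were named from the platform annotation: 23521 had 1 symbol, 1814 had several and 16010 were not listed, of 41345. Each gene was taken from its brightest probe set by mean over 26 arrays, and the dimmest 0.333 of 22180 genes were left out, which left 14787 with a mean of at least 6.00. No column of per-sample values lay outside the labels (0 columns).

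Knockdown, time, their interaction and the difference between sets were tested with lmFit and eBayes (limma 3.58.1, R 4.3.3), on the 18 arrays of the time course, the 8 of the repeat set or all 26, with 9, 4 and 13 residual degrees of freedom. P-values were Benjamini-Hochberg adjusted over all 14787 genes in each comparison, with a threshold of 0.05. The labels call the replicates biological but do not say that they came from separate cultures. The p-values therefore measure the spread between these arrays, and 2 arrays a group limit the precision. The scripts were tested on simulated data. The members and lists were chosen with earlier results of these data known. Named genes were all members; up to 4 genes of each pathway list that passed one way in all 4 knockdown comparisons at 0 h, by the smallest of their largest adjusted p, filled up to 2 by the smallest adjusted p for Mettl3 knockdown in the time course; the 3 genes of highest correlation with each member over 13 group means, unnamed genes left out; and the targeted genes. Alternatives changed the filter, the probe set rule, the normalization, the arrays in the fit, array weights, the replicate block and the arrays left out. Motifs were searched in RefSeq promoter windows.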

Additional observations from a re-analysis of the deposited data

Results flagged for a closer look

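In 12 cases a member's response differed between treatments or between sets by a test of the difference itself. The change from 0 h to 8 h differed from that of scramble for Il6st with Mettl14 knockdown (0.30, adjusted p = 0.0332) and with Mettl3 knockdown (0.30, adjusted p = 0.038). It differed for Socs3 with Mettl14 knockdown (0.48, adjusted p = 0.0297) and with Mettl3 knockdown (0.72, adjusted p = 0.00538) by the brighter probe set. The dimmer one passed in neither (0.50, adjusted p = 0.104, and 0.17, adjusted p = 0.597). For Stat3 it differed with Mettl3 knockdown (-0.42, adjusted p = 0.0129). Of all tested genes, 4.99% and 3.47% passed this test with Mettl14 and Mettl3 knockdown. With panel centring, Il6st (adjusted p = 0.339 and 0.47) and Socs3 with Mettl14 knockdown (adjusted p = 0.0745) did not pass. In the direct comparison of the knockdowns at 0 h of the time course, Pim1 (0.32, adjusted p = 0.017) and Stat3 (0.61, adjusted p = 9.38e-05) were higher with Mettl14 than with Mettl3 knockdown, 2 of 9 members where 6.07% of all tested genes passed. The Pim1 difference did not pass with panel centring (0.24, adjusted p = 0.179).

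The effect of Mettl14 knockdown at 0 h differed between the time course and the repeat set for Lifr (-0.40, adjusted p = 0.00864) and Socs3 (-0.60, adjusted p = 0.000833), 2 of 9 members beside 16.5% of all tested genes. The effect of Mettl3 knockdown differed for Pim1 (-0.33, adjusted p = 0.0238), Socs3 (-0.65, adjusted p = 0.000775) and Stat3 (-0.63, adjusted p = 1.05e-05), 3 of 9 beside 9.81%. In all 5 cases the value was lower in the time course. With panel centring the differences of Lifr (adjusted p = 0.229) and Pim1 (adjusted p = 0.133) did not pass. That of Gbx2 with Mettl14 knockdown then passed (0.55, adjusted p = 0.0249). Several calls of this section also depended on single arrays, as given above. The sets also differ in their arrays and controls, and what sets them apart cannot be told apart from the difference in response. All p-values are from limma over all tested genes.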

How the results depend on the processing

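Of 198 values of the members, 100 passed, and 67 of these kept the call under every alternative run, while 33 lost it somewhere and 36 others passed somewhere. Over 5355 recomputed values, 10 that passed before or after the change of setting turned sign, all with reference panel centring. A further 108 turned sign without passing either way, 25 of them with panel centring, 13 with quantile normalization again, 3 with the mean of probe sets, 66 with 1 array left out and 1 without the repeat scramble arrays described as 4 h. Among the 10 that passed before or after were Jak1 from 0 h to 4 h and 8 h with Mettl14 knockdown (-0.048 and -0.082) and Mettl3 knockdown (-0.057 and -0.12) and to 8 h in scramble (-0.037). The others of these 10 were Stat3 from 0 h to 4 h and 8 h with Mettl14 knockdown (-0.25 and -0.29) and in scramble (-0.067 and -0.26), and Pim1 with Mettl14 knockdown in the repeat set (-0.26). Of the other pathway genes, Lif (-0.11) and Stat6 (-0.076) had passed as higher with Mettl14 knockdown in the repeat set and were then below 0. In that comparison Clcf1, which had not passed (0.03, adjusted p = 0.809), went to -0.30. Osmr, which passed on neither scale, went from 0.27 to -0.067. Counts of members that passed moved by over 1.5 times as follows. Panel centring gave 8 for Mettl14 knockdown at 8 h against 0 h (main value 5), 4 for scramble at 8 h against 4 h (main value 2), 1 for Mettl14 against Mettl3 knockdown (main value 2) and 0 for the 8 h difference of Mettl14 knockdown from scramble (main value 2). For that difference, no filter on dim genes gave 0, array weights 0 and quantile normalization again 1. For scramble at 8 h against 4 h, no filter, the mean of probe sets and quantile normalization again each gave 1. The 6 arrays at 0 h alone gave 1 for Mettl14 against Mettl3 knockdown. Leaving out 1 array at a time gave 1 to 4 for Mettl14 against Mettl3 knockdown, 4 to 7 for Mettl14 knockdown at 0 h (main value 7), 1 to 3 for the difference of the Mettl14 effect between sets (main value 2) and 1 to 2 for Mettl14 knockdown at 8 h against 4 h (main value 1). It gave 0 to 3 and 1 to 4 for the 8 h differences of Mettl14 and Mettl3 knockdown from scramble (main values 2 and 3) and 1 to 2 for scramble at 8 h against 4 h.

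The main fits did not pair arrays by replicate number. Deviations of same-numbered arrays correlated at -0.436 to 0.335 over 36 pairs of groups in the time course (median 0.031, 12 pairs over 0.1). In the repeat set they correlated at -0.047 to 0.042 over 6 pairs (median -0.004, 0 pairs over 0.1). With the replicate block, the calls for Jak2 (Mettl14 knockdown at 0 h, adjusted p = 0.058), Pim3 (adjusted p = 0.0692) and Socs3 (adjusted p = 0.0686, both Mettl14 knockdown in the repeat set) were lost, and the Pim1 interaction with Mettl3 passed (adjusted p = 0.0412). An alternative chosen after seeing the data left out both repeat scramble arrays described as 4 h. Without them Pim3 with Mettl14 knockdown in the repeat set (-0.13, adjusted p = 0.175) and the difference between sets of Pim1 with Mettl3 knockdown (-0.32, adjusted p = 0.0957) lost their calls. With 1 fit over all 26 arrays, Pim3 lost its calls in the repeat set (adjusted p = 0.426 for Mettl14 and 0.0673 for Mettl3). With 2 arrays a group, small changes near the threshold depend on single arrays, as given beside them; the cause of these losses was not tested. All p-values here are from limma.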
